A study of Mus musculus with 2 samples.

Results

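The miR-99/100 and miR-125 genes are 6 mouse microRNA (miRNA) genes that stand in pairs at 3 loci. Mir99a and Mir125b-2 lie on chromosome 16, Mir99b and Mir125a on chromosome 17, and Mir100 and Mir125b-1 on chromosome 9, each pair around a let-7 gene. The genes were chosen by name, through the Ensembl identifiers of the deposited rows, and all 6 of the 6 had a row among the 1973 gene rows of the tables. They were picked with their levels in these libraries known, so their levels and the ratios between them are given as a description, without a test. Forebrains of B6NCrl mice were pooled from embryos of both sexes aged 11.5 days, and small RNA of under 30 bases was sequenced from the pools (microRNA-seq). The series held 1 group of 2 biological replicates, with tissue of 109 embryos in replicate 1 and of 88 embryos in replicate 2, and no treated, mutant or control group. The labels give both pools the same donor entry, so the spread between the libraries may be partly technical. Levels are CPM, the reads of a gene on its own strand scaled to such reads of all gene rows of the library.

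A miRNA is cut from a hairpin RNA whose stem can give a 5p and a 3p product, and it pairs with messenger RNAs mainly through its seed, bases 2 to 8 from its 5′ end. The miR-125 family is the vertebrate counterpart of lin-4, the miRNA that times larval development in the worm Caenorhabditis elegans, and miR-125b is known to repress Lin28 and to increase as neurons differentiate. The miR-99/100 family is related to the miR-10 family and is known to repress the kinase gene Mtor in mammalian cells. The arrangement of a miR-100 gene, a let-7 gene and a miR-125 gene along 1 transcript is also found in Drosophila, where the cluster is known for its role in developmental timing.

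The mature 5p sequences are shown because both the families and the limits of the counts follow from them. They are RefSeq entries on GRCm38.p6, the assembly that mm10 names, written 5′ to 3′ with the seed in capitals. The miR-99/100 genes share 1 seed, which no other mature miRNA of the RefSeq table has.
miR-99a-5p of Mir99a (chr16:77598940-77598961, plus strand): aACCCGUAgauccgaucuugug
miR-99b-5p of Mir99b (chr17:17830194-17830215, plus strand): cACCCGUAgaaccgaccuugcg
miR-100-5p of Mir100 (chr9:41531437-41531458, plus strand): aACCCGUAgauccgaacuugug
miR-125b-5p of Mir125b-2 (chr16:77646279-77646300, plus strand): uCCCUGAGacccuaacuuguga
miR-125a-5p of Mir125a (chr17:17830817-17830840, plus strand): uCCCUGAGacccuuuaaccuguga
miR-125b-5p of Mir125b-1 (chr9:41581940-41581961, plus strand): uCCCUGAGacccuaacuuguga

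With positions counted from 1 at the 5′ end, miR-100-5p differs from miR-99a-5p by the single substitution A16U, so the first 15 bases are the same. The miR-99b-5p sequence lies further off, with A1C, U11A, U16C and U21C counted from miR-99a-5p. The 5p products of Mir125b-1 and Mir125b-2 are identical over all 22 bases, and the hairpins share a stretch of 24 bases. The 24 bases of miR-125a-5p share their first 13 bases with miR-125b-5p. The 5p products of Mir99a, Mir99b, Mir100 and Mir125a were found whole in no other miRNA hairpin of GENCODE M21.

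The 3p products tell the genes apart, and they are shown because they are what is left to separate the miR-125b genes.
miR-125b-2-3p of Mir125b-2 (chr16:77646318-77646339): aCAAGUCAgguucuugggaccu
miR-125b-1-3p of Mir125b-1 (chr9:41581980-41582001): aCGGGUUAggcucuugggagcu
miR-125a-3p of Mir125a (chr17:17830855-17830876): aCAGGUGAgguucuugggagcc
miR-99a-3p of Mir99a (chr16:77598977-77598997): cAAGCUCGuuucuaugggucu
miR-99b-3p of Mir99b (chr17:17830232-17830253): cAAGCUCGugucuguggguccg
miR-100-3p of Mir100 (chr9:41531471-41531492): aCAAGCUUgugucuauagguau
The 3p products of Mir125b-1 and Mir125b-2 differ by G3A, G4A, U7C, C11U and G20C, counted from miR-125b-1-3p, and G3A, G4A and U7C lie within the seed, so that the seeds differ. The 3p products of Mir99a and Mir99b share a seed, which that of Mir100 does not have. No 3p product of the 6 genes was found whole in another miRNA hairpin. A gene row can hold reads of both products together, so 5p and 3p cannot be told apart in the counts. The rows of Mir125b-1 and Mir125b-2 lack whole miR-125b-5p reads, since these fit both genes and are left out. Which products the remaining reads of these 2 rows come from was not tested.

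Reads with more than 1 place in the genome are kept in a separate row, outside the counts of any gene. That row held 1165381 reads in replicate 1 and 1001079 reads in replicate 2, or 40.4% ± 1.82 of the mapped reads (SD, n = 2). A whole miR-125b-5p read fits both Mir125b-1 and Mir125b-2, so the levels of these genes can be too low by an amount that the files do not give. The counts of Mir99a, Mir99b, Mir100 and Mir125a have no such copy among the miRNA hairpins. Each read counts once whatever the length of its gene, and the mature products run from 21 to 24 bases. Levels are therefore compared between genes as read counts without a length correction. Whether RNAs of different sequence are read equally well was not tested. A bias of this kind shared by both libraries would not show in their spread or in the intervals.

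The libraries held 1281201 counts in replicate 1 and 1297647 in replicate 2 on the strand of the genes, at which 3 counts are 2.34 and 2.31 CPM. Intervals cover counting error only, since copies made by PCR are not independent molecules. Markers of the labelled forebrain were present, with 10 of 11 neural miRNA genes at 2 CPM or more in both libraries. The neural sums were 40092 CPM in replicate 1 and 34513 CPM in replicate 2. Mir92b and Mir149 made up most of these sums, with means of 17079 and 14979 CPM. Mir124a-2 and Mir124a-3, also neural genes, had means of 20.5 and 3.49 CPM. Markers of other tissues were also read. Sums in replicates 1 and 2 were 34601 and 30323 CPM for the endothelial gene Mir126a, 19153 and 17325 CPM for 6 mesenchyme and smooth muscle genes, 8297 and 7756 CPM for 7 epithelial genes, 788 and 804 CPM for 4 leukocyte genes and 606 and 371 CPM for 3 erythroid genes. The lowest sums were those of 8 striated muscle genes (253 and 134 CPM, with Mir133b, Mir133a-2, Mir133a-1 and Mir1a-1 at 0) and of 6 Hox cluster genes of hindbrain and trunk (210 and 84.0 CPM, with Mir196a-1 at 0). Reads that map to several places are outside all these sums, the neural sum included. A sum can therefore be too low, and a 0 does not show that a miRNA was absent. Which cells held the miR-99/100 and miR-125 reads was not tested, and in pooled tissue more cells of a type and more RNA per cell cannot be told apart.

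Together the 6 genes took 11.9% of the counts in replicate 1 and 11.0% in replicate 2, and the miR-99/100 genes made up most of this. In replicate 1 the miR-99/100 genes held 10.9% (10.9 to 11.0% as the 95% interval after Wilson), and in replicate 2 they held 10.1% (10.1 to 10.2%), a mean of 10.5% ± 0.595 (SD, n = 2). For the miR-125 genes the share was 0.991% (0.974 to 1.01%) in the first library and 0.903% (0.887 to 0.919%) in the second, a mean of 0.947% ± 0.0627. The log2 ratio of the summed miR-99/100 counts to the summed miR-125 counts was 3.46 in replicate 1 and 3.48 in replicate 2, or 11.1-fold in the mean. The miR-125 sum leaves out the reads that fit both Mir125b-1 and Mir125b-2. The totals behind these shares leave out all reads that map to several places.

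Among the miR-99/100 genes, Mir99a was the highest. It had 75475 counts (58910 CPM) in replicate 1 and 71693 counts (55248 CPM) in replicate 2. Among all genes, by reads that map to a single place, Mir99a held rank 3 in both libraries. Mir99b had 45538 counts (35543 CPM) and 40403 counts (31136 CPM) in replicates 1 and 2, and rank 5 in both. Mir100 had 19240 counts (15017 CPM) and 19044 counts (14676 CPM), and rank 16 in both.

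The libraries lay close together for each of these genes and the ranges of the genes did not overlap. Mean levels were 57079 ± 2589 CPM for Mir99a, 33339 ± 3117 CPM for Mir99b and 14846.5 ± 241 CPM for Mir100 (SD, n = 2 each), coefficients of variation of 4.54%, 9.35% and 1.63%. Of the family's counts, Mir99a gave 54.2% ± 0.605, Mir99b 31.6% ± 1.17 and Mir100 14.1% ± 0.568. The log2 ratio of Mir99a to Mir99b was 0.729 in replicate 1 and 0.827 in replicate 2, and that of Mir99b to Mir100 was 1.24 and 1.09. The order was thus the same in both libraries, with gaps larger than the spread between them.

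By reads that map to a single place, Mir125a was the highest of the miR-125 genes, with 8591 counts (6705 CPM) in replicate 1 and 7954 counts (6130 CPM) in replicate 2, and rank 44 in both. Whole miR-125b-5p reads are left out of the counts of Mir125b-1 and Mir125b-2. Mir125b-1 had 3201 counts (2498 CPM) and 2899 counts (2234 CPM) in replicates 1 and 2, at ranks 74 and 81. Mir125b-2 had 911 counts (711 CPM) and 862 counts (664 CPM), at rank 127 in both.

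These levels also kept their order in both libraries, without overlap. Mean levels were 6417 ± 407 CPM for Mir125a, 2366 ± 187 CPM for Mir125b-1 and 688 ± 33.1 CPM for Mir125b-2 (SD, n = 2 each). Mir125a gave 67.8% ± 0.188 of the family's counts, Mir125b-1 25.0% ± 0.320 and Mir125b-2 7.26% ± 0.132. Mir125a lay above the sum of both miR-125b genes, at a log2 ratio of 1.06 (95% interval 1.01 to 1.12) in replicate 1 and 1.08 (1.02 to 1.14) in replicate 2, where the miR-125b side holds no reads that fit both genes. Mir125b-1 lay above Mir125b-2 by 1.81 and 1.75, from reads that map to a single place. In the order of all 6 genes by such reads, the lowest miR-99/100 gene stood above the highest miR-125 gene, with log2 ratios of Mir100 to Mir125a of 1.16 and 1.26.

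**Figure D1:**
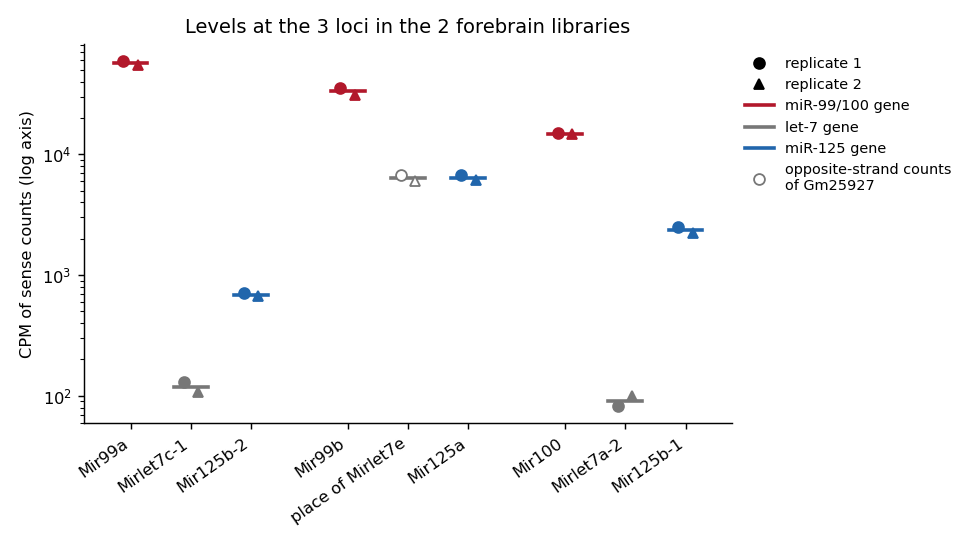
CPM on a log axis for the miR-99/100 gene, the let-7 gene and the miR-125 gene of each locus, with circles for replicate 1, triangles for replicate 2 and bars for the mean. Open symbols are counts read on the opposite strand of Gm25927 at the place of Mirlet7e, scaled like CPM to the sense counts. The libraries lie close together for every gene, and the 3 miR-99/100 genes, from 14676 to 58910 CPM, stand above the 3 miR-125 genes, from 664 to 6705 CPM. Reads that fit both Mir125b-1 and Mir125b-2 are left out.

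**Figure D2:**
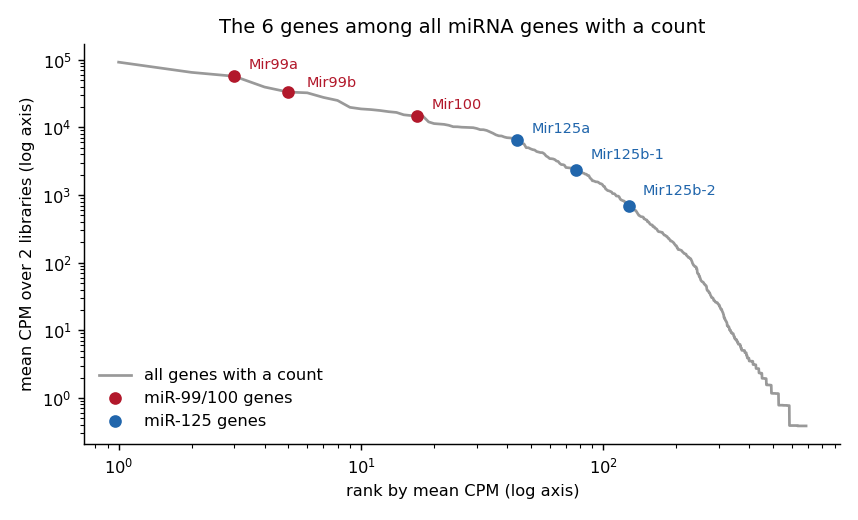
Mean CPM of all miRNA genes with a count against their rank, both on log axes, with the 6 genes marked. The miR-99/100 genes stand at ranks 3, 5 and 17 of the mean level and the miR-125 genes at ranks 44, 77 and 127. Levels and ranks leave out reads that map to several places.

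By mean level over the 2 libraries, the genes next to Mir99a were Mir17, a gene of the Mir17hg transcript, at 65099 ± 8463 CPM and Mir130a at 39525 ± 1495 CPM. Mir17 and Mir99a stood close in replicate 1, at 59115 and 58910 CPM, and apart in replicate 2, at 71083 and 55248 CPM. Mir99b followed Mir130a and stood above the endothelial Mir126a, at 32462 ± 3025 CPM, which lay at -0.04 from Mir99b on the log2 scale in both libraries. Mir100 stood between Mir149 (14979 ± 1706 CPM) and Mir744 (14655 ± 11.5 CPM), and it lay below Mir149 in replicate 1 and above it in replicate 2. Mir125a stood between Mir379 at 6740 ± 23.5 CPM and Mir214 at 6296 ± 302 CPM, in that order in both libraries. Mir125b-1 stood between Mir323 and Mir484, at 2371 ± 138 and 2354 ± 124 CPM, and Mir125b-2 between Mir200b and Mir503, at 692 ± 39.1 and 666 ± 95.4 CPM. The order against these last 4 genes was not the same in both libraries.

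At each of the 3 loci the hairpins lie on the plus strand in the order miR-99/100 gene, let-7 gene, miR-125 gene, and in each the miR-99/100 gene had more counts than the miR-125 gene. On chromosome 17 the 3 hairpins lie within 692 bases. On chromosome 16 they span 47408 bases and on chromosome 9 they span 50578 bases.

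On chromosome 17, Mir99b (ENSMUSG00000065396, chr17:17830188-17830257) lies in an intron of Spaca6 in GENCODE M21, and Mir125a (ENSMUSG00000065479, chr17:17830812-17830879) overlaps an exon of a Spaca6 transcript on the same strand. Mir99b had 45538 counts against 8591 of Mir125a in replicate 1, a log2 ratio of 2.41 (95% Clopper-Pearson interval 2.37 to 2.44), and 40403 against 7954 in replicate 2, a ratio of 2.34 (2.31 to 2.38). The mean ratio was 2.38 ± 0.04 (SD, n = 2), or 5.19-fold. The 5p products of both genes of this pair were found in no other miRNA hairpin, and miR-125a-5p also stands whole in the overlapping Spaca6 transcript.

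On chromosome 9, Mir100 (ENSMUSG00000093011, chr9:41531425-41531504) and Mir125b-1 (ENSMUSG00000093354, chr9:41581926-41582002) lie in introns of the noncoding genes 3110039I08Rik and Gm49317. Mir100 also overlaps an exon of Gm48742 on the opposite strand, and Mir125b-1 an exon of Gm28119 on its own strand. Mir100 had 19240 counts against 3201 of Mir125b-1 in replicate 1, a log2 ratio of 2.59 (2.53 to 2.64), and 19044 against 2899 in replicate 2, a ratio of 2.72 (2.66 to 2.77). The mean was 2.65 ± 0.09, or 6.28-fold, and the intervals of the libraries did not overlap.

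On chromosome 16, Mir99a (ENSMUSG00000065530, chr16:77598936-77599000) and Mir125b-2 (ENSMUSG00000065472, chr16:77646273-77646343) lie in introns of the noncoding gene Mir99ahg, their host transcript, and Mir125b-2 also overlaps an exon of C130023A14Rik. Mir99a had 75475 counts against 911 of Mir125b-2 in replicate 1, a log2 ratio of 6.37 (6.28 to 6.47), and 71693 against 862 in replicate 2, a ratio of 6.38 (6.28 to 6.48). The mean was 6.37 ± 0.0039, or 83.0-fold.

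The ratio of the pair on chromosome 16 lay far above the others, which differed from each other by more than their spread. The miR-99/100 genes ranked chromosome 16, 17, 9 by level, while the miR-125 genes ranked 17, 9, 16. The pairs on chromosomes 16 and 9 rest on a miR-125b gene, whose reads that fit both copies are missing. The counts of Mir99a and Mir125b-2 were apart by 6.40% of the reads with more than 1 place in replicate 1 and by 7.08% in replicate 2. Those of Mir100 and Mir125b-1 were apart by 1.38% and 1.61% of these reads. How many of these reads are miR-125b was not tested, so the order within these pairs holds only for reads that map to a single place.

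**Figure D3:**
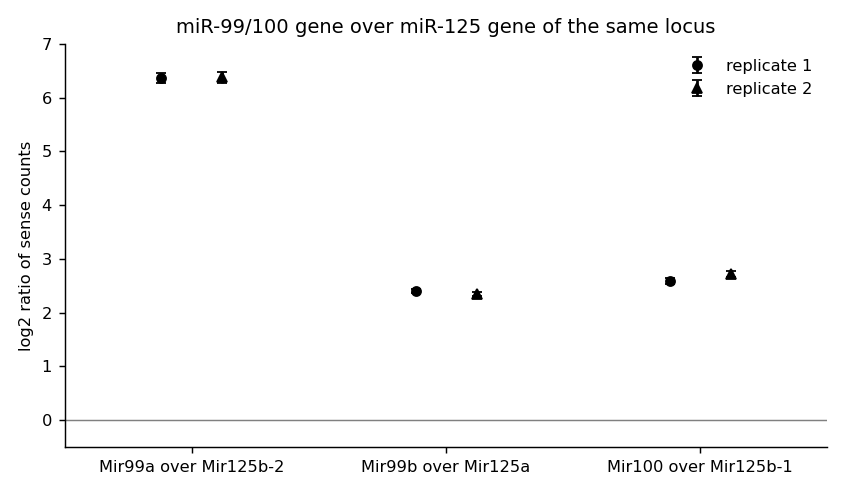
Log2 ratio of the sense counts of the miR-99/100 gene to those of the miR-125 gene of its locus, with circles for replicate 1, triangles for replicate 2 and bars for the exact 95% interval of counting error. All values are above 0, at 6.37 and 6.38 for the chromosome 16 pair against 2.34 to 2.72 for the pairs on chromosomes 17 and 9. Reads that fit both miR-125b genes are left out of the pairs on chromosomes 16 and 9.

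The let-7 genes at the middle of the loci had fewer counts than both of their neighbours where they had a row. Mirlet7c-1, on chromosome 16, had 168 and 139 counts in replicates 1 and 2 (119 ± 17.0 CPM), and Mirlet7a-2, on chromosome 9, had 105 and 130 counts (91.1 ± 12.9 CPM). The log2 ratio of Mir99a to Mirlet7c-1 was 8.81 and 9.01, and that of Mir100 to Mirlet7a-2 was 7.51 and 7.19. The miR-125 genes stood above their let-7 neighbours by less, with 2.44 and 2.63 for Mir125b-2 over Mirlet7c-1 and 4.92 and 4.47 for Mir125b-1 over Mirlet7a-2. The let-7c-5p sequence of Mirlet7c-1 is also found whole in Mirlet7c-2, and the hairpin of Mirlet7a-2 shares 23 bases with Mirlet7a-1, so the let-7 levels have the same limit as those of the miR-125b genes. Mirlet7e, the let-7 gene on chromosome 17, had no row of its own.

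**Figure D4:**
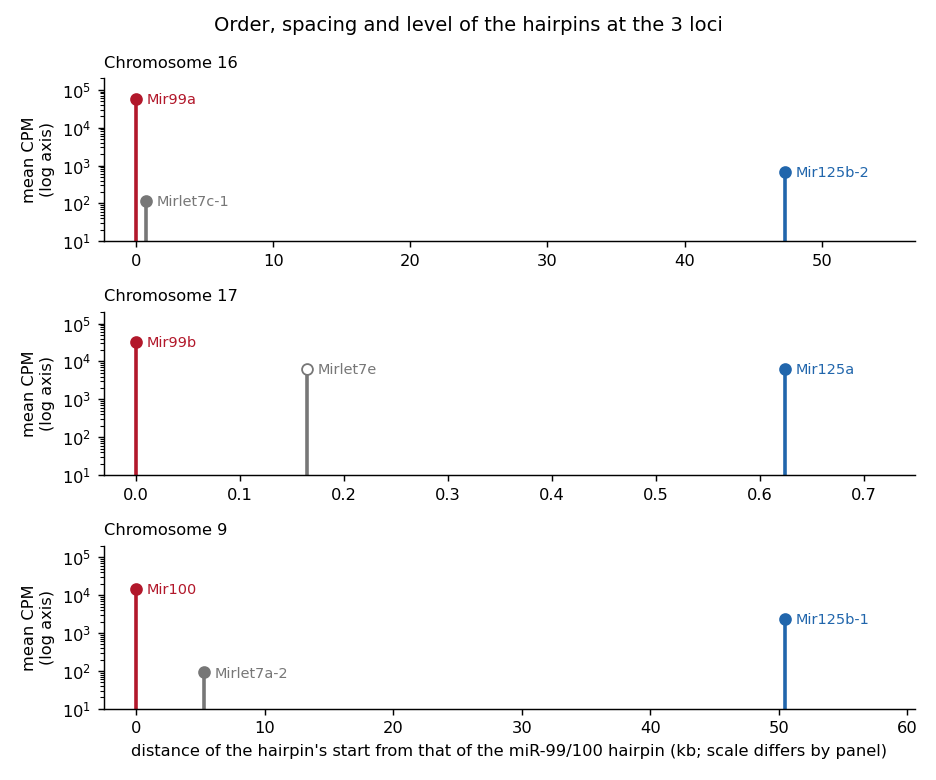
Mean CPM on a log axis against the distance in kb from the start of the miR-99/100 hairpin, 1 panel per locus, each with its own distance scale. The open point stands for counts on the opposite strand of Gm25927 at the place of Mirlet7e, scaled like CPM to the sense counts. The hairpins lie within 692 bases on chromosome 17 and are spread over 47408 and 50578 bases on chromosomes 16 and 9, and the miR-99/100 hairpin is the highest at each. Levels leave out reads that map to several places.

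Outside the 3 loci, the miR-125 seed was found in 3 further genes of the RefSeq table. Mir351, on chromosome X from 53053255 to 53053353, gives miR-351-5p, which is shown for its shared seed.
miR-351-5p (chrX:53053315-53053338, minus strand): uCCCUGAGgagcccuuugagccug
Mir351 had 2352 counts (1836 CPM) in replicate 1 and 1647 counts (1269 CPM) in replicate 2, and the log2 ratio of Mir125a to Mir351 was 1.87 and 2.27. It differed more between the libraries than any of the 6 genes, at a log2 ratio of replicate 1 to replicate 2 of 0.53 (0.44 to 0.62). The other genes with this seed, Mir6367 and Mir6394, had no count in either library. For reads that map to a single place, a count of 0 allows 2.34 and 2.31 CPM in replicates 1 and 2.

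The relatives of the miR-99/100 family, Mir10a and Mir10b, lie in the Hox clusters and are known from the hindbrain, spinal cord and trunk. Their 5p product has another seed, shown here for Mir10a beside the sequences above.
miR-10a-5p of Mir10a (chr11:96317186-96317208, plus strand): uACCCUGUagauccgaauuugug
In replicates 1 and 2, Mir10a had 120 and 41.6 CPM and Mir10b had 66.3 and 25.4 CPM. Both were called higher in replicate 1, by the exact binomial test, with log2 ratios of 1.52 (1.07 to 2.01, adjusted p = 1.03e-11) and 1.37 (0.79 to 2.01, adjusted p = 8.13e-06), which count only the counting error of 1 library on each side. In edgeR's exact test, also with 1 library on each side, the log2 ratios were 1.46 for Mir10a and 1.31 for Mir10b. Both genes passed at an adjusted p under 0.05 with the coefficient of variation that edgeR estimated from these 2 libraries. Neither passed with it set to 0.2, a setting at which no gene tested passed. The levels of Mir10a and Mir10b were under 1% of that of the lowest miR-99/100 gene, which had 14676 CPM in its lower library.

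Between the replicate libraries, 0 of the 6 genes passed the two-sided exact binomial test (adjusted p under 0.05 and a minimum of 2-fold), against 11 of all 398 genes tested (2.76%). The 398 genes were those with 10 counts or more in total, and p-values were adjusted over all of them by Benjamini-Hochberg. All 6 genes had a log2 ratio of replicate 1 to replicate 2 above 0, except that Mir100 fell below 0 with TMM or DESeq2 scaling and with totals without Mir335 and Mir17. Their median was 0.11, against a median of 0.07 over all genes tested, of which 256 (64.3%) lay above 0. At an unadjusted p under 0.05, 5 of the 6 genes passed, against 141 of the 398 genes tested (35.4%).

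Without the 2-fold minimum, 4 of the 6 genes were higher in replicate 1 at an adjusted p under 0.05 and 0 were lower, where 28.4% of the genes tested differed, 20.6% higher and 7.79% lower. The ratio was 0.19 (95% interval 0.17 to 0.21, adjusted p = 9.42e-82) for Mir99b and 0.09 (0.08 to 0.11, adjusted p = 3.08e-33) for Mir99a in the exact binomial test. It was 0.16 (0.09 to 0.23, adjusted p = 8.57e-05) for Mir125b-1 and 0.13 (0.09 to 0.17, adjusted p = 6.87e-08) for Mir125a. Mir100 at 0.03 (0.0042 to 0.06, adjusted p = 0.0751) and Mir125b-2 at 0.10 (-0.04 to 0.23, adjusted p = 0.328) did not pass.

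This test covers counting error only, so with 75475 and 71693 counts Mir99a passed at a log2 ratio of 0.09. The median absolute log2 ratio between the libraries was 0.114 for the 6 genes and 0.122 for the 232 genes at 100 CPM or more. The common coefficient of variation that edgeR estimated was 10.3%, taken from the same 2 libraries that the test then compares, 1 on each side, so its calls are no independent measure of the spread. At that value edgeR's exact test called 0 of the 6 genes at an adjusted p under 0.05, against 2.01% of the genes tested, and 0 at an unadjusted p under 0.05, against 5.28%. With the coefficient of variation set to 0.2, edgeR's exact test called 0 of the 6 genes and 0% of the genes tested at an adjusted p under 0.05, and 0 of the 6 genes against 3.27% at an unadjusted p under 0.05. With TMM scaling, which set the median ratio of all genes to -0.0018, 4 of the 6 genes passed the binomial test without the 2-fold minimum as higher in replicate 1, Mir100 stood at -0.03, and the genes that differed were 54 higher and 52 lower in place of 82 and 31.

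**Figure D5:**
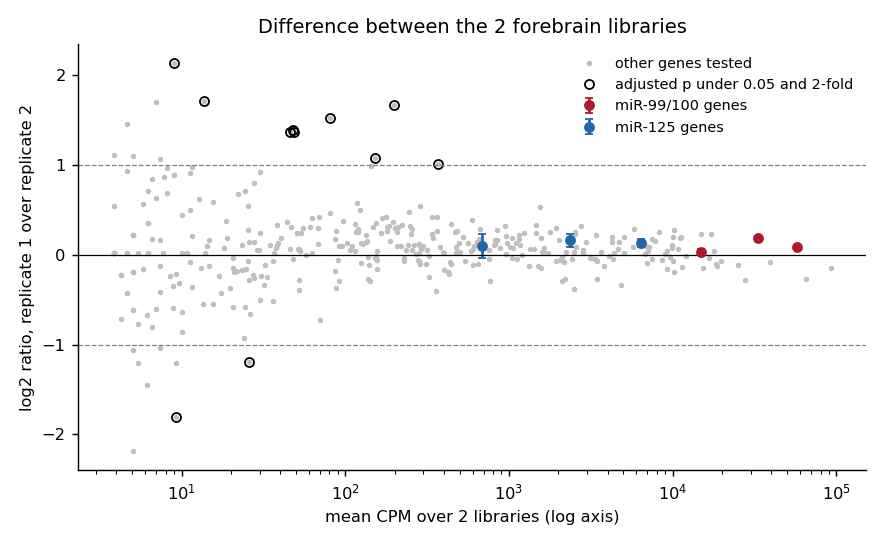
Log2 ratio of replicate 1 to replicate 2 against mean CPM on a log axis for the 398 genes tested, with the 6 genes in colour and their exact 95% intervals, circles for the 11 genes called, and dashed lines at 2-fold. The 6 genes lie between 0.03 and 0.19, of which Mir100 would lie below 0 with TMM or DESeq2 scaling or totals without Mir335 and Mir17, and all lie inside the 2-fold lines.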

How the data were processed

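Per the labels and the deposited text files, reads were aligned to mm10 and counted per gene of annotation M4. Which aligner and counter were used is not given in the sources used here. Raw counts were deposited by the authors in 3 columns (both strands, the gene's strand, the opposite strand). The sense column, 96.6% ± 0.271 of the gene counts (SD, n = 2), was used. The 4 rows that name no gene (unmapped, multimapping, no feature, ambiguous) were kept out of totals and tests. GENCODE M21 on GRCm38 gave symbols, positions and overlaps for 1894 of the 1973 identifiers, all miRNA genes. All 6 members matched RefSeq mature sequences.

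Members, lists and tests were chosen with earlier results of these data known. Named genes are the members, the let-7 genes of the loci, seed relatives, Mir10a, Mir10b, the genes next in mean level and marker lists. Gm25927 and the miR-125b sum were added after values were seen.

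The libraries were compared with an exact binomial test against their totals, with 0.5 counts added for log2 ratios, since 1 group allows no quasi-likelihood contrast. The script was tested on simulated data. Alternatives covered column, scaling, filter, pseudocount, fold minimum, denominators and edgeR's exact test. Tools were Python 3.11.15 with scipy 1.17.1, R 4.3.3, edgeR 4.0.16 and DESeq2 1.42.0.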

Additional observations from a re-analysis of the deposited data

Results flagged for a closer look

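At the place of Mirlet7e, which has no row, counts appeared in a column that the report's comparisons do not use. Gm25927 (ENSMUSG00000092799) is annotated on the minus strand of chromosome 17 from 17830343 to 17830459 and covers Mirlet7e, which lies on the plus strand. Its own strand held 0 counts in both libraries, which allows up to 2.34 and 2.31 CPM of reads that map to a single place. Its opposite strand, the strand of Mirlet7e, held 8572 counts in replicate 1 and 7816 counts in replicate 2. The mature let-7e-5p was found whole in no other miRNA hairpin.
let-7e-5p of Mirlet7e (chr17:17830366-17830387, plus strand): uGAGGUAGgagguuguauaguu

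Scaled like CPM to the sense counts, these were 6691 and 6023, a mean of 6357 ± 472 (SD, n = 2), beside 6705 and 6130 CPM for the neighbouring Mir125a. The log2 ratio of Mir125a to this place was 0.0032 (95% interval -0.04 to 0.05) in replicate 1 and 0.03 (-0.02 to 0.07) in replicate 2, and that of Mir99b was 2.41 and 2.37. The row held 17.9% of all opposite-strand counts in replicate 1 and 18.1% in replicate 2, and over both libraries together it had the third highest such count of all rows. The opposite strand of the 6 genes themselves held 1 count, at Mir125b-1 in replicate 1.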

How the results depend on the processing

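The 3 pair ratios moved by less than 1 SD with the unstranded column and with 1 count added in place of 0.5. Leaving out a library, which with 2 libraries gives the value of the other, gave 6.37 and 6.38 for Mir99a over Mir125b-2, 2.34 and 2.41 for Mir99b over Mir125a, and 2.59 and 2.72 for Mir100 over Mir125b-1. The count of the 6 genes that differed between the libraries was 0 in every alternative but the one without a fold minimum, where it was 4. Over all genes, 11 became 113 without the minimum. With the 2-fold minimum, edgeR's exact test called 0 with the coefficient of variation set to 0.2 (13 genes had an unadjusted p under 0.05, whatever their fold) and 6 at the dispersion it estimated, where 8 passed without the minimum. Mir100 turned to -0.0340 with TMM scaling and in both edgeR tests, to -0.0167 with DESeq2 size factors and to -0.0038 with totals without Mir335 and Mir17. With all reads as the denominator of CPM, Mir99a stood at 19996 and Mir125b-2 at 241. No paired analysis was possible because the series has 1 group. Depth limits genes without a count to 2.34 and 2.31 CPM of reads that map to a single place. Reads that map to several places limit the miR-125b and let-7 genes by an unknown amount.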
